A study of Mus musculus with 6 samples.

Results

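The genes described here encode homing receptors and integrins of B cells. They are 5 chemokine receptors (*Cxcr4*, *Cxcr5*, *Ccr7*, *Ccr9* and *Ccr10*), the sphingosine 1-phosphate receptor *S1pr1*, the oxysterol receptor *Gpr183* and the integrin subunits *Itga4* and *Itgb7*. They were chosen by name for their role, not by a filter on their values, though with earlier results of these data known. They number 9 of the 54446 genes with a value. RNA-seq was run on spleen B cells from *Tent5c* KO mice and their WT littermates on a mixed C57BL/6J X CBA background, aged 12 to 15 weeks. Cells of both genotypes spent 7 days in culture with LPS at 20 µg/ml and IL-4 at 20 ng/ml, so no library shows the cells before activation. There were 3 libraries of each genotype, and each replicate number (pair 1, 2 or 3) stands for a KO and a WT littermate handled as 1 batch. The KO-labelled libraries held 6650817, 6564640 and 6793520 fragments on genes, and the WT-labelled ones 6669652, 6082854 and 5393558, here and throughout in the order of pairs 1, 2 and 3.

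Chemokine receptors, the sphingosine 1-phosphate receptor and the oxysterol receptor are G protein-coupled receptors that steer lymphocytes along gradients of their ligands. In lymphoid tissue, CXCR5 draws B cells into follicles, CCR7 and GPR183 draw activated B cells towards the follicle border, and S1PR1 lets lymphocytes leave the tissue. Plasma cells use CXCR4 to reach the bone marrow and CCR9, CCR10 and the integrin α4β7 to reach mucosal tissue.

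*Tent5c*, the targeted gene, had 1993, 993 and 1170 normalized counts in KO-labelled libraries, against 1255, 767 and 1584 in WT-labelled ones. The groups overlapped and the transcript was not lower in the libraries labelled KO (log2 difference 0.20 ± 0.19, SE, limma adjusted *p* = 0.970). Without pair 1 the difference was −0.033, and without pair 3 it was 0.52. The level of this transcript therefore does not check the genotype labels, and each direction below is drawn from the labels alone.

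Of the 9 genes, 7 reached a mean normalized count of 10 and were tested with limma among 12322 genes, with the pair in the model. None of the 7 had an adjusted *p* under 0.05, as was the case for 0 of all genes tested (0%), and their adjusted *p*-values lay between 0.934 and 0.996. At an unadjusted *p* under 0.05, 1 of the 7 (*Itga4*) was higher and 0 were lower in the libraries labelled KO, beside 1.67% of all genes higher (206 genes) and 3.03% lower (373 genes). edgeR on the recovered fragments gave 0 genes in all (0%), and DESeq2 gave 23 of the 9894 genes with an adjusted *p* (0.232%), with 0 of the 7 members among them. *Itga4* was also the only member higher in all 3 pairs, which held for 11.7% of the genes tested, and 0 members were lower in all 3, which held for 13.1%. KO and WT values overlapped in each of the 7, whereas 6.83% of the genes tested had groups that did not overlap. The median log2 difference was 0.022 over the 7 members (0.084, −0.12 and 0.23 without pair 1, 2 and 3) and 0.00067 over all genes tested. Without pair 1, 171 genes had an adjusted limma *p* under 0.05, with 0 members among them. At an unadjusted *p* under 0.05, *Cxcr4* was then lower and *Ccr7*, *Cxcr5* and *Itga4* higher. Of all genes, 5.09% were then lower and 1.93% higher. Since the libraries came from whole cultures, fewer cells expressing a gene and less of its RNA per cell cannot be told apart.

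**Figure D1:**
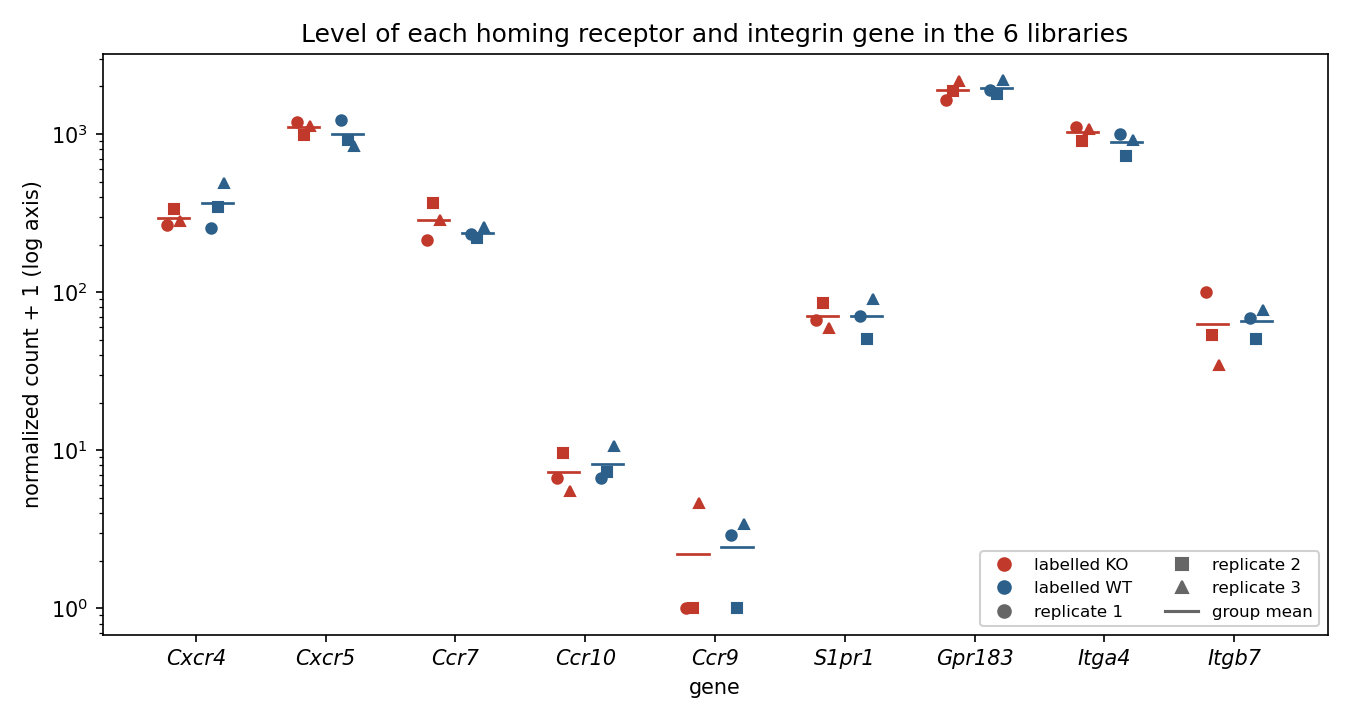
Normalized count plus 1, on a log axis, of each of the 9 genes in each of the 6 libraries, with libraries labelled KO in red, those labelled WT in blue, a symbol for each replicate and a line at each group mean. The 2 groups overlap for every gene, and *Ccr9* and *Ccr10* lie far below the others, with at most 3.63 and 9.63 normalized counts.

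*Cxcr4*, the receptor for CXCL12, lies on chromosome 1 of GRCm38 from 128588199 to 128592293, minus strand. It had 264, 336 and 281 normalized counts in KO-labelled libraries, against 255, 345 and 488 in WT-labelled ones. The library labelled WT of pair 3 was the highest of the 6, while the other 5 lay between 255 and 345, and the groups overlapped. Its log2 difference was −0.26 (95% interval −0.66 to 0.14, adjusted *p* = 0.970). It came from pair 3, with −0.79, beside 0.051 in pair 1 and −0.040 in pair 2. Without pair 3 the difference was 0.0056, and without pair 1 it was −0.42. The library labelled WT of pair 3 also had the highest summed level of the 8 plasma cell markers, 21406 normalized counts beside 9847 to 19045 in the other 5, and the fewest fragments. The second highest sum, 19045, was in the library labelled KO of pair 1, where *Cxcr4* was low at 264. The order rested on *Jchain*, since the other 7 plasma cell markers summed to 13311 in the library labelled WT of pair 3 and to 14300 in that labelled KO of pair 1. The T cell markers other than *Lck* summed to 111 in the library labelled WT of pair 3, beside 29.3 to 61.7 in the other 5, but *Lck* was lowest there, and the sum of all 11 (171) lay within the range of the others. The same library had the lowest sum of the 7 B cell markers (27619) and the lowest *Pax5* (1334) and *Ebf1* (368), both transcription factors of B cell identity. The part of markers or depth in the level of *Cxcr4* was not tested.

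*Cxcr5*, the receptor for CXCL13, had 1183, 987 and 1130 normalized counts in KO-labelled libraries, against 1231, 912 and 845 in WT-labelled ones. Both libraries of pair 1 were the highest, and the groups overlapped. The log2 difference was 0.16 (95% interval −0.075 to 0.39, adjusted *p* = 0.970), with −0.057, 0.12 and 0.42 in pairs 1, 2 and 3. Without pair 3 the difference was 0.029, and without pair 1 it was 0.27. Across the 6 libraries *Cxcr5* and *Cxcr4* ran in opposite order, with a Pearson correlation of −0.95 of their log2 values, the most negative of the 21 correlations between members. This is a description of 6 libraries that share batches. The ratio of *Cxcr5* to *Cxcr4* per kilobase of transcript was 2.84, 1.87 and 2.55 in KO-labelled libraries, against 3.06, 1.68 and 1.10 in WT-labelled ones. The last of these, again the library labelled WT of pair 3, was the lowest, and the ratios of the groups overlapped. Exons of *Cxcr5* overlap those of *Bcl9l* on the other strand, and the authors counted fragments by strand. *Bcl9l* had a mean of 234 normalized counts.

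*Ccr7*, the receptor for CCL19 and CCL21, had 211, 364 and 283 normalized counts in KO-labelled libraries, against 233, 219 and 259 in WT-labelled ones. The library labelled KO of pair 2 was the highest, and that labelled KO of pair 1 the lowest, so the values labelled KO enclosed those labelled WT. The fitted log2 difference was 0.24 (95% interval −0.16 to 0.64, adjusted *p* = 0.970). Pair 2 carried it with 0.73. Without that pair the difference was −0.0058, and without pair 1 it was 0.43.

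*Ccr10* and *Ccr9*, receptors for the mucosal chemokines CCL28 and CCL25, were under the filter and not among the 7 genes above. In a fit without the filter, all 9 members were tested and 0 had an adjusted *p* under 0.05. *Ccr10* had between 4.54 and 9.63 normalized counts, which are 5 to 9 fragments a library. *Ccr9* had 0 fragments in 3 libraries and at most 4, in the library labelled KO of pair 3. Only that library was above a floor of 3 fragments, which stood for 2.72 to 3.61 normalized counts, so no fold is given. A difference in *Ccr9* was not detectable at this depth. The annotated *Ccr9* gene overlaps exons of other genes, among them *Gm17200* on its own strand, and fragments of exons shared on a strand cannot be told apart.

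*S1pr1*, which responds to sphingosine 1-phosphate, had 65.1, 84.8 and 58.1 normalized counts in KO-labelled libraries, against 69.9, 49.1 and 89.1 in WT-labelled ones. High and low libraries occurred in both groups, and the group means were 69.4 ± 13.9 and 69.4 ± 20.0 (SD, n = 3 each). The log2 difference was 0.022 (95% interval −0.62 to 0.67, adjusted *p* = 0.996), with 0.78 in pair 2 and −0.61 in pair 3. Without pair 2 the difference was −0.35, and without pair 3 it was 0.34. The interval spans folds from 0.650 to 1.59, so these libraries set only wide limits for this gene. Neither genotype (0.146%) nor pair (4.65%) took a large share of its variance on the log2 scale.

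*Gpr183*, the receptor for 7α,25-dihydroxycholesterol, had 1648, 1877 and 2156 normalized counts in KO-labelled libraries, against 1912, 1792 and 2184 in WT-labelled ones. Both libraries of pair 3 were the highest, and the groups overlapped. The log2 difference was −0.056 (95% interval −0.23 to 0.12, adjusted *p* = 0.970), which is a fold between 0.852 and 1.09. Without pair 1 the difference was 0.024, and without pair 2 it was −0.12. The pair took 79.1% of the variance of *Gpr183* and the genotype 3.81%. Its coefficient of variation over the 6 libraries, 10.8%, was the lowest of the 9 genes.

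*Itga4* encodes the α4 subunit, which pairs with the β7 or the β1 subunit to bind MAdCAM-1 or VCAM-1, and lies on chromosome 2 of GRCm38 from 79255426 to 79333123, plus strand. It had 1105, 903 and 1073 normalized counts in KO-labelled libraries, against 1006, 722 and 921 in WT-labelled ones. The library labelled KO was the higher of its pair each time, although the groups overlapped, since the library labelled KO of pair 2 was below those labelled WT of pairs 1 and 3. The log2 difference was 0.23 ± 0.067 (SE, 95% interval 0.064 to 0.39), a fold of 1.17, with 0.14, 0.32 and 0.22 in pairs 1, 2 and 3. With an unadjusted limma *p* of 0.0135 and an adjusted *p* of 0.934 it did not pass the test. The pair took 65.7% of its variance, the genotype 30.8% and the rest 3.46%. Without the pair in the model the difference was the same, 0.23, and its unadjusted *p* was no longer under 0.05, as was also the case without pair 2 and in DESeq2. *Itga4* overlaps *Cerkl* on the other strand, and the authors counted fragments by strand.

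*Itgb7*, the β7 subunit, had 99.1, 52.4 and 33.6 normalized counts in KO-labelled libraries, against 68.0, 49.1 and 75.9 in WT-labelled ones. Its highest and lowest library were both labelled KO, in pairs 1 and 3. The fitted log2 difference was −0.17 (95% interval −0.94 to 0.60, adjusted *p* = 0.975), with 0.54, 0.092 and −1.15 in pairs 1, 2 and 3. Without pair 3 it was 0.31 and without pair 1 it was −0.53, so its direction rested on pair 3. *Itgb7* varied most of the 7 genes tested, with a coefficient of variation of 36.6% over the 6 libraries.

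**Figure D2:**
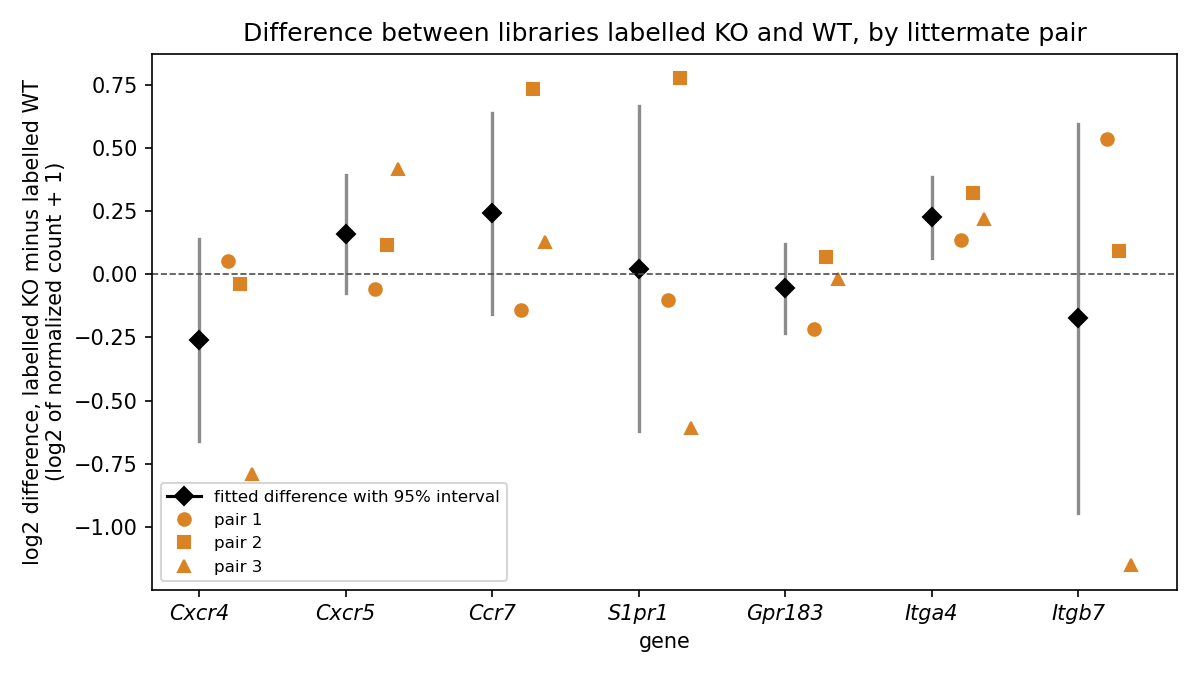
Log2 difference between libraries labelled KO and WT for the 7 genes tested, fitted with limma (black diamonds, with vertical lines for 95% intervals) and within each of the 3 littermate pairs (orange symbols). *Itga4* is the only gene with all 3 pairs above 0, and the pairs of *Itgb7* and *S1pr1* lie widest apart.

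Per kilobase of the principal transcript, *Gpr183* was the most abundant of the 9 genes, with 708 ± 76.5 normalized counts per kilobase (SD, n = 6). *Cxcr5* followed with 368 ± 54.9, and both were apart from the next gene in the range of the 6 libraries. *Cxcr4* (182 ± 47.9), *Ccr7* (132 ± 28.7) and *Itga4* (97.8 ± 14.3) came next, and the ranges of neighbours among these 3 overlapped. *Itgb7* (23.5 ± 8.60) and *S1pr1* (22.8 ± 5.05) did not differ beyond their spread and changed places when all annotated exons were used as the length. *Ccr10* (3.90 ± 1.13) and *Ccr9* (0.254 ± 0.299) were the lowest.

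The α4 transcript exceeded its β7 partner per kilobase in every library, with a ratio of 3.06, 4.73 and 8.78 in KO-labelled libraries, against 4.06, 4.04 and 3.34 in WT-labelled ones. The highest and the lowest ratio were both in libraries labelled KO. Against *Itgb1*, the other partner of α4, the ratio was below 1 in each library, from 0.296 to 0.494. The groups overlapped in both ratios.

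By likeness over the 6 libraries, the 3 genes closest to each tested member among genes averaging 100 or more normalized counts had Pearson correlations of log2 values between 0.969 and 0.992. For *Itga4* they were *Tubb6*, *Slc28a2* and *Dgka*, of which *Slc28a2* and *Dgka* fell to 0.844 and 0.839 without pair 2, and for *Itgb7* *Gm25395*, *Abracl* and *Zscan26*. For *Cxcr4* they were *Mreg*, *Nek6* and *Dnajc10*, and for *Cxcr5* *Mindy2*, *Ssh3* and *Tnfrsf13c*, the last encoding the BAFF receptor. For *Ccr7* they were *Ap1ar*, *Kif5c* and *Slc29a1*, for *S1pr1* *Cdc23*, *Ripk3* and *Atp8b2*, and for *Gpr183* *Ehbp1l1*, *Fastk* and *Copb2*. These are the highest of 7905 or 7906 correlations for each gene over 6 libraries, and describe these libraries only.

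The other genes of the homing pathways were read from 7 lists, in which 0 genes had an adjusted *p* under 0.05. Of the 10 ligands of the members, 6 (*Cxcl12*, *Cxcl13*, *Ccl19*, *Ccl21a*, *Ccl28* and *Vcam1*) were listed at 0 in all 6 libraries. *Ccl25*, the ligand of CCR9, and *Madcam1*, the ligand of α4β7, were tested. *Ccl25* had 64.2, 55.3 and 59.9 normalized counts in KO-labelled libraries, against 41.6, 53.3 and 48.2 in WT-labelled ones, without overlap (log2 difference 0.33, adjusted *p* = 0.970, and 0.18 without pair 1). Groups without overlap occurred in 6.83% of all genes tested. *Madcam1* ranged from 16.0 to 67.4 normalized counts, the lowest in a KO-labelled and the highest in a WT-labelled library, with a log2 difference of −0.36 (adjusted *p* = 0.970, and 0.082 without pair 3).

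Among 29 other chemoattractant receptors, 14 were tested, 0 had an unadjusted *p* under 0.05, and the median log2 difference was −0.018, or −0.085 to 0.0052 when a pair was left out. The most abundant per kilobase were *P2ry10*, *Gpr132* and *Cnr2*, the cannabinoid receptor of lymphocytes, with 403, 173 and 152 normalized counts per kilobase of exon. Of the 12 enzymes and transporters of sphingosine 1-phosphate and oxysterols, 5 were tested (*Sphk2*, *Sgpl1*, *Sgpp1*, *Plpp1* and *Plpp3*), with log2 differences from −0.26 to −0.040 (−0.46 to 0.011 when a pair was left out) and 0 at an unadjusted *p* under 0.05. *Ch25h* and *Cyp7b1*, which make the ligand of GPR183, were listed at 0. Of 32 genes of G protein signalling and receptor desensitisation, 29 were tested, 0 had an unadjusted *p* under 0.05 and the median was 0.035, or 0.0068 to 0.053 when a pair was left out. *Cdc42*, *Rac2* and the receptor kinase *Grk2* were the most abundant of them, with 1122, 819 and 606 normalized counts per kilobase of exon.

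Of 24 other integrin subunits, 10 were tested, with a median log2 difference of 0.12, which was 0.030 without pair 1 and 0.047 without pair 3. Of the 10, 1 was higher and 1 lower at an unadjusted *p* under 0.05, beside 1.67% and 3.03% of all genes. The most abundant per kilobase of exon were *Itgb2* (240), *Itgb1* (235) and *Itgal* (234), in normalized counts per kilobase. The products of *Itgal* and *Itgb2* form the integrin LFA-1. *Itgb3* had 385, 533 and 476 normalized counts in KO-labelled libraries, against 255, 463 and 383 in WT-labelled ones. The library labelled KO was the higher in each pair and the groups overlapped, with a log2 difference of 0.37 (unadjusted *p* = 0.00759, adjusted *p* = 0.858). *Itgb2* was at −0.20 (unadjusted *p* = 0.045, adjusted *p* = 0.970), or −0.29 to −0.12 when a pair was left out.

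Of 24 genes of integrin activation and the adhesion complex, 23 were tested, with a median of −0.0035, or −0.036 without pair 3, and 0.0067 with TMM scaling and 0.012 with quantile normalization. At an unadjusted *p* under 0.05, 1 was higher and 2 lower, beside 1.67% and 3.03% of all genes. *Pxn*, which encodes the adaptor paxillin that binds the α4 tail, had 417, 451 and 403 normalized counts in KO-labelled libraries, against 347, 363 and 319 in WT-labelled ones. The groups did not overlap, and the log2 difference was 0.31 (unadjusted *p* = 0.00527, adjusted *p* = 0.737). *Apbb1ip*, whose product links RAP1 to talin, had a log2 difference of −0.28 and *Rap1a* one of −0.21. Both were at an adjusted *p* of 0.970 and without overlap of the groups. The log2 difference of *Rap1a* was −0.12 without pair 3. Groups without overlap occurred in 6.83% of all genes tested. *Flna* and *Rap1b* were, with *Rap1a*, the most abundant of the list, at 512, 368 and 776 normalized counts per kilobase of exon. The 21 transcription factors of homing genes were all tested, with 0 at an unadjusted *p* under 0.05 and a median of 0.061, which was −0.021, 0.11 and −0.041 without pair 1, 2 and 3. *Xbp1*, *Irf4* and *Tcf3* led them, with 1500, 552 and 444 normalized counts per kilobase of exon.

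The cell type was checked with marker lists. The 7 B cell markers summed to between 27619 and 32783 normalized counts, led by *Ms4a1*, which encodes CD20, and 0 of them had an adjusted *p* under 0.05. At an unadjusted *p* under 0.05, 1 was higher (*Cr2*, log2 difference 0.83, adjusted *p* = 0.737) and 1 lower (*Cd79a*, −0.21, adjusted *p* = 0.970). Of all genes, 1.67% were higher and 3.03% lower. Both markers were named after their values were seen. The plasma cell markers, led by *Xbp1*, summed to 19045, 10451 and 13079 in KO-labelled libraries, against 13459, 9847 and 21406 in WT-labelled ones, so they varied within both groups. *Tent5c* is itself 1 of these 8 markers. The 11 T cell markers summed to between 133 and 217, led by *Lck*. In the library labelled WT of pair 3, *Lck* was the lowest of the 6 libraries (60.2) and the sum of the other 10 the highest. The 6 NK cell markers summed to between 10.5 and 65.4 (led by *Gzma*), and the 10 myeloid markers to between 21.9 and 137 (led by *Lyz2*). *S100a8*, *S100a9* and *Elane* were listed at 0. The 6 erythroid markers summed to at most 4.72, all but *Hbb-bt* and *Alas2* being listed at 0, and the 7 stromal or endothelial markers to at most 126, nearly all from *Pecam1*, with *Col3a1* and *Pdgfra* at 0.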

How the data were processed

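RNA from 3 KO and 3 WT libraries was depleted of rRNA and sequenced in a strand-specific protocol. The authors aligned reads to GRCm38 with STAR, counted fragments per gene by strand with featureCounts, and scaled them by size factors from DESeq2. What they deposited is this signal, a normalized count for each of 54446 genes. All values above 0 (100%, within 0.01 fragments) were whole multiples of a step specific to the library, from which fragments were recovered. Positions and lengths came from Gencode vM21.

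log2(normalized count + 1) was tested with limma 3.58.1 (R 4.3.3, trend, two-sided, Benjamini-Hochberg over 12322 genes with a mean of at least 10, threshold 0.05), with the pair as a block. Batch equals replicate number in the labels, and the methods state that each replicate is a littermate pair. Deviations of paired libraries from their group means correlated at 0.328, 0.685 and 0.170. Differences on this scale understate changes of low genes. The fragments were also tested with edgeR 4.0.16 and DESeq2 1.42.0, and the fits were tested on simulated data, in which each of the 3 tools made more false calls than its threshold implies. Intervals and floors cover counting error or the spread between libraries only. No libraries were duplicates.

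Named genes were all 9 members, *Tent5c*, and from the pathway lists those with an unadjusted *p* under 0.05, the 3 most abundant per kilobase, and all of a list with 5 or fewer tested genes, at most 6 a list. Marker lists were given as sums with their most abundant gene, and the 3 genes most like each member by correlation. Members and lists were chosen with earlier results of these data known.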

Additional observations from a re-analysis of the deposited data

How the results depend on the processing

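With limma, 0 genes were called under the pseudocount of 5, both other filters, quantile normalization, TMM scaling and without the replicate block, and edgeR also called 0. DESeq2 called 23, and 24 when genes at 0 in all libraries were left out, a setting added after the data had been seen. Leaving out a pair gave 0 to 171 calls, the most without pair 1 (168 lower, 3 higher). In all 12 settings 0 members were called, though DESeq2 without genes at 0 gave an adjusted *p* to only 5 of them, not to *S1pr1* and *Itgb7*. Without pair 1, *Ccr7*, *Cxcr4*, *Cxcr5* and *Itga4* had an unadjusted *p* under 0.05, as had 627 genes lower (5.09%) and 238 higher (1.93%) of all 12322, beside *Itga4* alone among the members in the fit of all pairs. *Itga4* stayed between 0.18 and 0.27 over the 12 settings (adjusted *p* 0.498 to 1) and *Cxcr5* between 0.029 and 0.27 (0.598 to 1). The fit without the block for littermate pairs left each log2 difference as it was, for *Itga4* at 0.22569, and *Itga4* lost its unadjusted *p* under 0.05, as it did in both DESeq2 runs and without pair 2. List medians moved by more than the spread between pairs in 10 values, 9 of them with a pair left out.

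Leaving out a pair turned the direction of 5 members and of *Tent5c*, with log2 differences of *Cxcr4* −0.42 to 0.0056, *Ccr7* −0.0058 to 0.43, *S1pr1* −0.35 to 0.34, *Gpr183* −0.12 to 0.024, *Itgb7* −0.53 to 0.31 and *Tent5c* −0.033 to 0.52. Other named genes that turned ranged as follows: *P2ry10* −0.058 to 0.024, *Gpr132* −0.098 to 0.0043, *Madcam1* −0.88 to 0.082, *Sgpp1* −0.11 to 0.011, *Rac2* −0.013 to 0.064, *Cdc42* −0.012 to 0.072, *Rap1b* −0.0032 to 0.013, *Flna* −0.077 to 0.033, *Irf4* −0.19 to 0.15, *Xbp1* −0.077 to 0.48, *Mreg* −0.29 to 0.0013, *Nek6* −0.29 to 0.023, *Slc29a1* −0.018 to 0.23, *Cdc23* −0.056 to 0.063, *Ripk3* −0.20 to 0.085, *Atp8b2* −0.26 to 0.13, *Ehbp1l1* −0.070 to 0.039, *Fastk* −0.058 to 0.011, *Copb2* −0.058 to 0.016, *Gm25395* −0.076 to 0.083, *Abracl* −0.16 to 0.034 and *Zscan26* −0.11 to 0.011. Quantile normalization turned *Tcf3* (0.0038), *Irf4* (0.0039), *Ehbp1l1* (0.0038) and *Gm25395* (0.00074), and TMM scaling *Tcf3* (0.0025), *Irf4* (0.0011) and *Gm25395* (0.0056). None of these passed the test in any setting. The cause was not tested. Depth limits *Ccr9* and *Ccr10*, with at most 4 and 9 fragments in a library.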
